A study of Rattus norvegicus with 9 samples.

Results

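Tsx, Tubb3, Rhox5, Klf4 and Drd4, genes linked to testosterone or FSH action in Sertoli cells, were followed over postnatal age in the rat. Their probes were found by gene name on a whole-genome rat oligonucleotide array. Of 40758 probes that passed the quality flags, 4 carried a member's name as written and 1 carried Pem, the older name of Rhox5, so that 5 probes measured the 5 genes with 1 probe each.

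The RNA came from Sertoli cells of rat testes at 5, 12 or 60 days of age, with 3 samples per age and 9 arrays in all. Culture lasted 4 days, in defined medium containing growth factors, and all samples then received pulses of 50 ng/ml oFSH and 1e-07 M testosterone over 11 h. Because no culture without these hormones was among the samples, a response to either hormone cannot be separated from age here. The strain of the rats and the number of animals pooled per culture are not given in the sources used here.

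Sertoli cells nurse the germ cells inside the seminiferous tubule and pass on to them the signals of testosterone and FSH. Testosterone enters the cell and changes the transcription of genes, and germ cells depend on this signal reaching the Sertoli cells. FSH acts through a receptor at the cell surface that raises cyclic AMP. Rhox5, an X-linked homeobox factor, is the classical androgen-induced gene of Sertoli cells. Tsx, another X-linked gene, is named for its testis-specific expression. Tubb3, the class III beta-tubulin otherwise known from neurons, has been reported as androgen-regulated in Sertoli cells, and Drd4 is a dopamine receptor. Klf4, a zinc finger transcription factor, is known in Sertoli cells as a gene rapidly induced by FSH.

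The sequences on the array show what each spot could bind. The following stretches are the last 30 bases of each 60-base probe as the files give them, and the capitals mark the letters AATAAA, the common polyadenylation signal, in the Tsx probe.
Tsx: acaaattaaatggtgatgggaAATAAAacc
Tubb3: ctagggctcccgggttaaagtccttcagta
Rhox5: aggcggagaacaccaatccctgaacatttt
Klf4: ttgtacaatggtttattcccaagtatgcct
Drd4: gaagtgtcttccgcaagactcttcgtctcc
In the rn4 build, as the files give them, the probes lay at chrX:91408658-91408718 for Tsx, chr19:53751444-53751503 for Tubb3, chr5:73446994-73447053 on the minus strand for Klf4 and chr1:201488595-201488654 for Drd4, and the files gave no position for Rhox5. Whether they lie in exons is not stated, since the rn4 annotation was not used here.

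The 250 bases upstream of the start of Tsx, Tubb3 and Klf4, the 3 members whose levels differed between ages below, are shown from RefSeq on the GRCr8 build, at chrX:72492897-72493146 and chr19:68365437-68365686 on the plus strand and at chr5:75078593-75078842 on the minus strand. Capitals mark the cyclic AMP half-site TGACG or its reverse.
Tsx: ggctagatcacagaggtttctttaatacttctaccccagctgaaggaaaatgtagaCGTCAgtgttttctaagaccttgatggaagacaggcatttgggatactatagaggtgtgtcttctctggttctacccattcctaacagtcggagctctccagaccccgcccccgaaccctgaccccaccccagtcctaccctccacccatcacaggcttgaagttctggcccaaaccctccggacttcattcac
Tubb3: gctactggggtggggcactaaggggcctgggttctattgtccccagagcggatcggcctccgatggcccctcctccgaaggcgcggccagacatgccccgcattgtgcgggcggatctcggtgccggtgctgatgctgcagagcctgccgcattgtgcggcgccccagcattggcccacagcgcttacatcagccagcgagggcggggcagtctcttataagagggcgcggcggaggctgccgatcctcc
Klf4: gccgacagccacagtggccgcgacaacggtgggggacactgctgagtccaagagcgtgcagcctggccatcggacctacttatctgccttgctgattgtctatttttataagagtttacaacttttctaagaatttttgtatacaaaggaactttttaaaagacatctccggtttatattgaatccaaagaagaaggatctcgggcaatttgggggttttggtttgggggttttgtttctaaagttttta
The androgen half-site AGAACA, searched on both strands from 250 bases before to 50 after the start, was found in none of the 4 members with a promoter in that table (Tsx, Tubb3, Klf4 and Drd4) and in 20.7% of 33469 rat promoters of the same length. The half-site TGACG stood once in Tsx, from -194 to -190 on the opposite strand, and once in Drd4, from -142 to -138, against 21.2% of all promoters. A GC box (GGGCGG) stood 2 times in Tubb3, 2 times in Drd4, overlapping and after the start, and 1 time in Tsx, and 33.1% of all promoters hold one. These matches are letters in a window and say nothing of binding. The start is the one that RefSeq gives for each gene, and whether transcription begins there was not tested. A stretch shown above may therefore be transcribed itself or lie away from the promoter in use.

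Between 49.1% and 63.0% of the probes on an array lay well above background, and none of the members' spots was saturated. Levels below are processed signals on the log2 scale, with the 75th percentile of their own array set to 0. A probe was tested when 2 or more of the 3 arrays of any age read it well above background, and 4 of the 5 members passed, among 22457 genes tested. The test was limma's 2-sided moderated test with Benjamini-Hochberg adjustment over all of these genes, with 0.05 as the threshold for a call, and rose and fell are used below of called genes. By that measure 12.5% of all genes differed between 12 and 5 days, 25.3% between 60 and 12 days and 35.4% between 60 and 5 days. Of the 4 members tested, 1 was called in the first comparison (Tsx), 2 in the second (Tubb3 and Klf4) and 2 in the third (Tsx and Tubb3). With F-tests over the 3 ages, 3 of the 4 were called (Tsx, Tubb3 and Klf4, adjusted p = 0.000287, 0.00314 and 0.0398), against 36.7% of all genes.

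**Figure D1:**
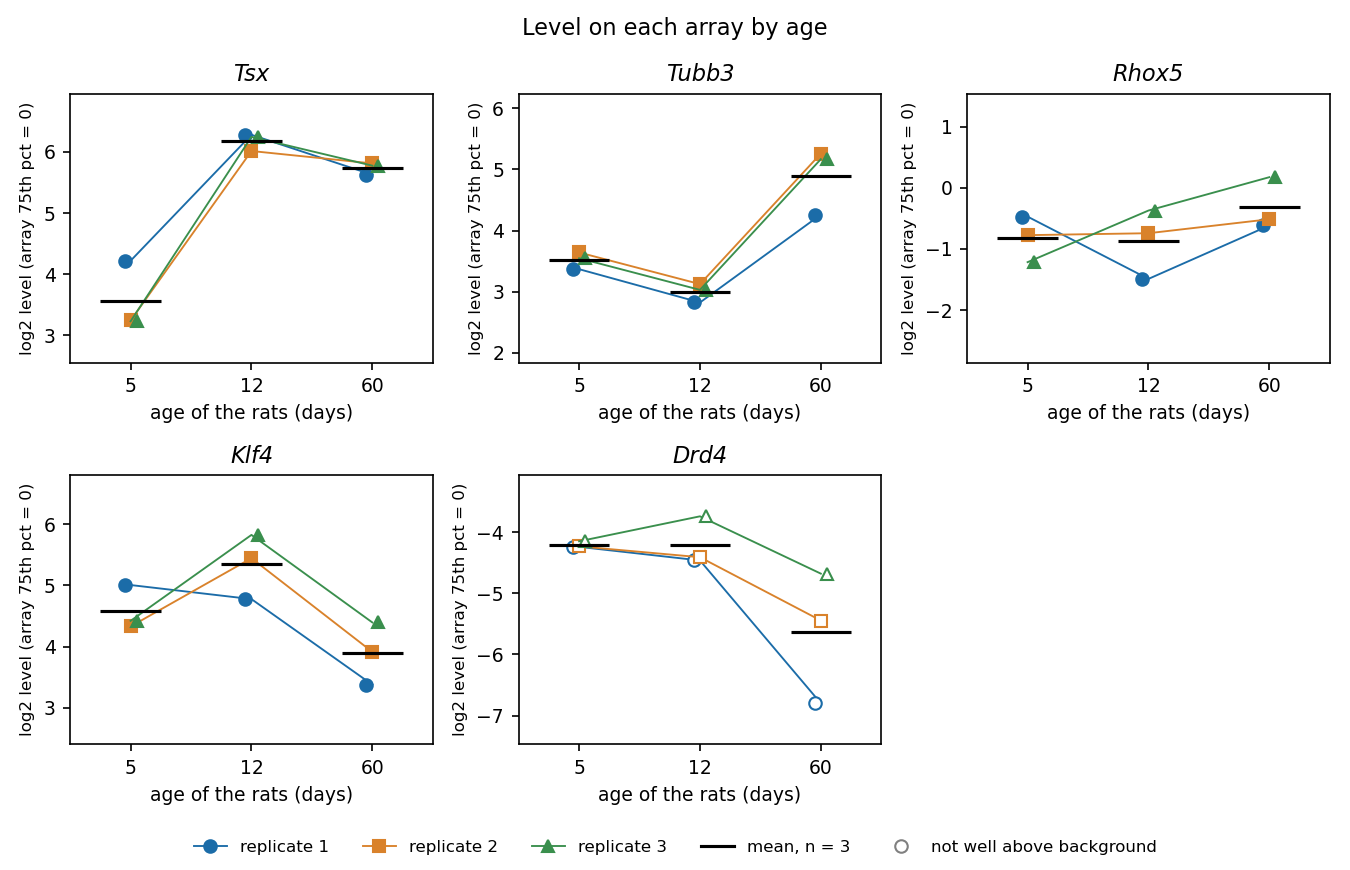
Log2 level (vertical axis, 75th percentile of each array at 0) of the 5 members on each of the 9 arrays by age in days (horizontal axis); points joined by a line share a replicate number, which is also the slide, black bars are means (n = 3) and open points are not well above background. Each panel spans the same range of log2 units. Tsx lies lowest at 5 days, Tubb3 highest at 60 days, and Drd4 is open on all 9 arrays.

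Tsx was the member with the largest difference. At 5 days its log2 level was 4.22, 3.25 and 3.23 on replicates 1, 2 and 3. At 12 days it was 6.28, 6.02 and 6.25, and at 60 days 5.63, 5.81 and 5.78. Every 12-day and 60-day array thus lay above every 5-day array, and the 60-day arrays all lay below the 12-day arrays by a smaller step. The mean level was 3.57 ± 0.57 at 5 days, 6.18 ± 0.14 at 12 days and 5.74 ± 0.10 at 60 days (SD, n = 3 each). Tsx rose by 2.62 log2 units, or 6.13-fold, from 5 to 12 days (SE 0.35, adjusted p = 0.000731, limma) and stayed 4.51-fold above the 5-day level at 60 days (2.17, SE 0.35, adjusted p = 0.000544). The difference of -0.44 between 60 and 12 days did not pass (adjusted p = 0.397). The second step was lower than the first by 3.06 log2 units (-3.06, SE 0.60, adjusted p = 0.00837), where 11.1% of all genes were called and 6.12% with the second step higher. Leaving out replicate 2 or 3 altogether ended the call of that difference of steps (adjusted p = 0.119 and 0.0954), while both rises were called without any single array or replicate number.

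Within slides the rise of Tsx from 5 to 12 days was 2.06, 2.77 and 3.02 log2 units, smallest on the slide whose 5-day array read highest. Scaled to the spike-in controls in place of the 75th percentile, both rises of Tsx were no longer called: 1.32 log2 units from 5 to 12 days (adjusted p = 0.271) and 1.83 from 5 to 60 days (adjusted p = 0.144). That scale moved the median of all genes by -1.30, 0.95 and -0.34 log2 units in the 3 comparisons, and turned the split of called genes from 1376 higher and 1420 lower to 92 higher and 2153 lower between 12 and 5 days, and from 2751 and 2932 to 2626 and 389 between 60 and 12 days. Every direction below is therefore relative to the 75th percentile of each array.

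The genes whose levels followed Tsx most closely over the 9 arrays were Cpeb2, a regulator of translation (Pearson r = 0.995, a description over arrays of 3 ages with no test), Inha, the alpha subunit of inhibin and a product of Sertoli cells (r = 0.988), and Cited1, a transcriptional coregulator (r = 0.976). Inha stood at 3.97 at 5 days, 6.68 at 12 days and 6.21 at 60 days (mean log2 levels, n = 3), and rose by 2.72 from 5 to 12 days (SE 0.30, adjusted p = 0.000252, limma). Cpeb2 rose by 2.53 and Cited1 by 2.77 over the same interval. Like Tsx, all 3 had their lowest values on the 5-day arrays and their highest on the 12-day arrays, and none of them was called between 60 and 12 days. Because the nearest genes, here and for the other members below, were picked by r over these same arrays, a shared pattern follows from the choice. Klf4 had r = 0.21 with Tsx and -0.67 with Tubb3, and Rhox5 had r = 0.60 with Tubb3.

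**Figure D2:**
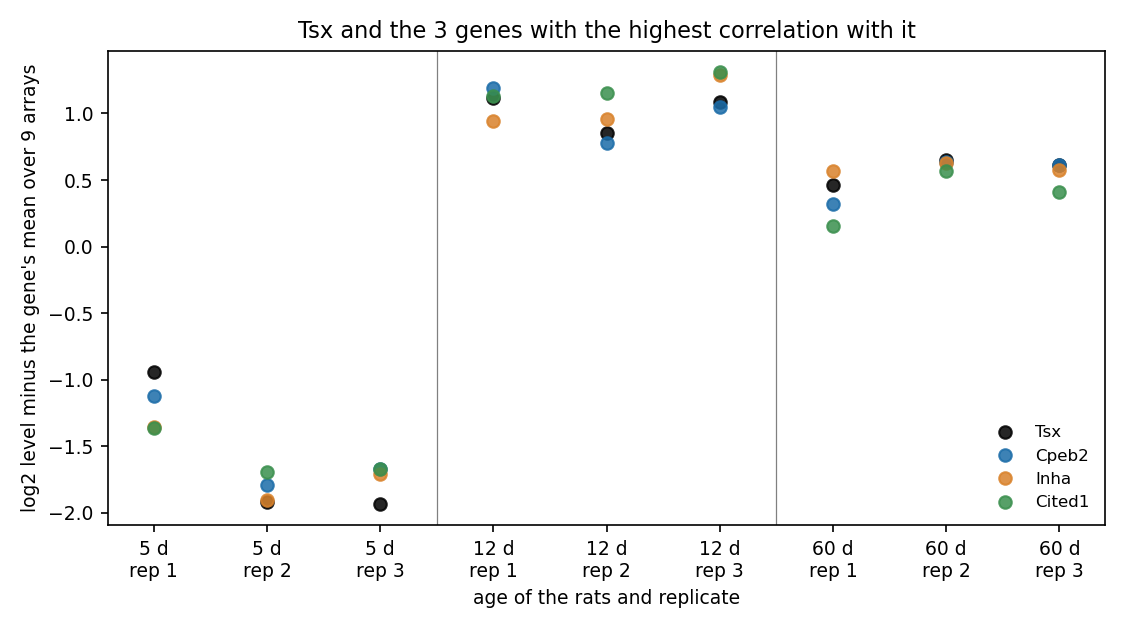
Log2 level of Tsx, Cpeb2, Inha and Cited1 minus each gene's own mean over the 9 arrays (vertical axis), array by array (horizontal axis, age and replicate). All 4 genes are lowest on the 5-day arrays and highest on the 12-day arrays.

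Tubb3 was lowest at 12 days and highest at 60 days. At 5 days its log2 level was 3.37, 3.64 and 3.55, at 12 days 2.82, 3.12 and 3.03, and at 60 days 4.26, 5.26 and 5.17 on replicates 1, 2 and 3. All 12-day arrays lay below all 5-day arrays, and the 60-day arrays lay above both. The difference between 12 and 5 days was nearly the same on each slide (-0.54, -0.52 and -0.52), and in the fit it was -0.53 (SE 0.35) and did not pass (adjusted p = 0.42). Arrays of 2 ages that do not overlap were found for 28.6% of all genes in this comparison, 40.7% between 60 and 12 days and 47.4% between 60 and 5 days. Tubb3 then rose 3.74-fold from 12 to 60 days (1.90 log2 units, SE 0.35, adjusted p = 0.00213) and was 2.60-fold higher at 60 than at 5 days (1.38, SE 0.35, adjusted p = 0.00942).

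The rise of Tubb3 between 12 and 60 days was smaller on slide 1 (1.44) than on slides 2 and 3 (2.13 and 2.14). Without replicate 2 the adjusted p of that rise was 0.0561, and without replicate 2 or 3 that of the difference between 60 and 5 days was 0.122 and 0.0859. On the spike-in scale the rise from 12 to 60 days was still called (2.86, adjusted p = 0.0109, limma). The difference between 60 and 5 days was not called on that scale (1.03, adjusted p = 0.502). The second step exceeded the first by 2.43 log2 units (SE 0.60, adjusted p = 0.0253), a call lost without any of 6 single arrays, namely replicate 1 (adjusted p = 0.106), 2 (0.0639) or 3 (0.0677) at 12 days, replicate 2 at 5 days (0.0598) and replicate 2 (0.0581) or 3 (0.0576) at 60 days. It was lost as well without replicate 2 or 3 (0.230 and 0.177), and so was the F-test (0.0785 and 0.0557).

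Because Tubb3 is also a gene of neurons and the older cultures can hold other cells, marker lists are given beside it. The summed level of 10 neuron markers, in units of the 75th percentile, was 9.89 to 19.2 at 5 days, 1.42 to 2.24 at 12 days and 3.04 to 6.90 at 60 days, so it was highest at 5 days. Single genes, picked after their values were seen, carried the sums at 5 and 60 days. Gap43, a protein of growing axons, made up 76.1% to 85.0% of the sum at 5 days, and without it the sum was 1.98 to 2.88 at 5 days and 2.84 to 6.88 at 60 days. Dcx, a microtubule protein of young neurons, made up 83.6% to 94.3% at 60 days and had the same signs as Tubb3: it fell by 2.90 log2 units from 5 to 12 days (adjusted p = 0.00249) and rose by 5.54 from 12 to 60 days (adjusted p = 2.01e-05). Without Dcx the sum was 9.41 to 18.4 at 5 days, 1.33 to 2.09 at 12 days and 0.357 to 0.498 at 60 days. Of the 7 neuron markers tested, 1 rose and 2 fell from 12 to 60 days, where 12.3% and 13.1% of all genes did. Of the 10, 5 were above background on no array at 5 days, 5 at 12 days and 6 at 60 days. On 2 or more arrays 5, 5 and 3 of them were above background at the 3 ages. The summed level of 17 spermatocyte markers was 2.46 to 3.47, 18.0 to 23.6 and 122 to 218 at the 3 ages, and 17 of 17 were well above background at 60 days against 4 of 17 at 5 days. For 16 spermatid markers it was at most 6.28 at 5 days and 6.73 at 12 days and was 28.8 to 46.8 at 60 days, with 15 of 16 above background at 60 days and 2 at 12 days. The part of germ cell or neuronal RNA in the rise of Tubb3 was not tested, and fewer cells of a type cannot be told apart from less RNA per cell in these bulk samples.

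The genes with the pattern most like Tubb3 were Pigv, an enzyme of the glycosylphosphatidylinositol anchor pathway (r = 0.985), Irf7, an interferon regulatory factor (r = 0.981), and Nudt18, a hydrolase of oxidised nucleotides (r = 0.979). Irf7 rose by 4.77 log2 units from 12 to 60 days (SE 0.74, adjusted p = 0.000825, limma), and like Tubb3 it was lower on the 60-day array of replicate 1 (1.95) than on those of replicates 2 and 3 (5.46 and 5.08).

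Of the tubulins, the building blocks of microtubules, 11 were tested (alpha, beta, gamma, delta and epsilon forms, with Tubb3 included). None of them rose and 1 fell from 5 to 12 days, 2 rose and none fell from 12 to 60 days, and 1 was higher and 1 lower at 60 than at 5 days (12.5%, 25.3% and 35.4% of all genes were called in these comparisons). Tuba8, an alpha-tubulin, was not well above background on any 12-day array and was at least 1.70-fold lower there than at 5 days (adjusted p = 0.0164) and at least 1.63-fold lower than at 60 days (adjusted p = 0.01), with 2 of 3 arrays above background at each of those ages, and the first call was lost without either of 2 single arrays. Tubb6, a beta-tubulin, was lower at 60 than at 5 days (-1.29, adjusted p = 0.0235), which did not pass without any of 4 single arrays, and with the slide as a block it was also called lower at 12 than at 5 days (-0.97, adjusted p = 0.0466). Tubb5, a widely expressed beta-tubulin, had differences of 0.02, -0.44 and -0.41 log2 units and was not called. The probe of Tubb4b was saturated on 6 of 9 arrays and that of Tubb2b on 1, so their differences, which were not called, are not given. The median difference between 60 and 12 days over the tested tubulins was -0.31, against -0.16 for all genes.

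Klf4 was highest at 12 days. Its log2 level was 5.01, 4.33 and 4.42 at 5 days, 4.78, 5.45 and 5.83 at 12 days and 3.38, 3.91 and 4.40 at 60 days on replicates 1, 2 and 3. The 5-day and 12-day values overlapped, and so did the 5-day and 60-day values, whereas all 12-day arrays lay above all 60-day arrays. Klf4 fell 2.74-fold from 12 to 60 days (-1.45 log2 units, SE 0.40, adjusted p = 0.0214, limma), and the within-slide differences were -1.40, -1.53 and -1.43. It did not pass between 12 and 5 days (0.76, adjusted p = 0.289), where the slides differed in direction (-0.23, 1.12 and 1.41 on replicates 1, 2 and 3). Nor did it pass between 60 and 5 days (-0.69, adjusted p = 0.213), where every slide was lower but by unlike sizes (-1.63, -0.42 and -0.03).

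The call of Klf4 was lost without any of 4 single arrays, namely replicate 2 (adjusted p = 0.0594) or 3 (0.0788) at 12 days and replicate 1 (0.0688) or 2 (0.0611) at 60 days, although the fall remained between 1.20 and 1.74 log2 units in size. It was lost as well without replicate 2 or 3 (adjusted p = 0.173 and 0.0797), on the spike-in scale (-0.50, adjusted p = 0.774) and with another background correction (-1.10, adjusted p = 0.131). The F-test of Klf4 (adjusted p = 0.0398) ranged from 0.0288 to 0.260 when arrays or replicate numbers were left out. Its second step was lower than the first by 2.22 log2 units, and this was called with the slide as a block (adjusted p = 0.0430) and not without it (0.0673).

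**Figure D3:**
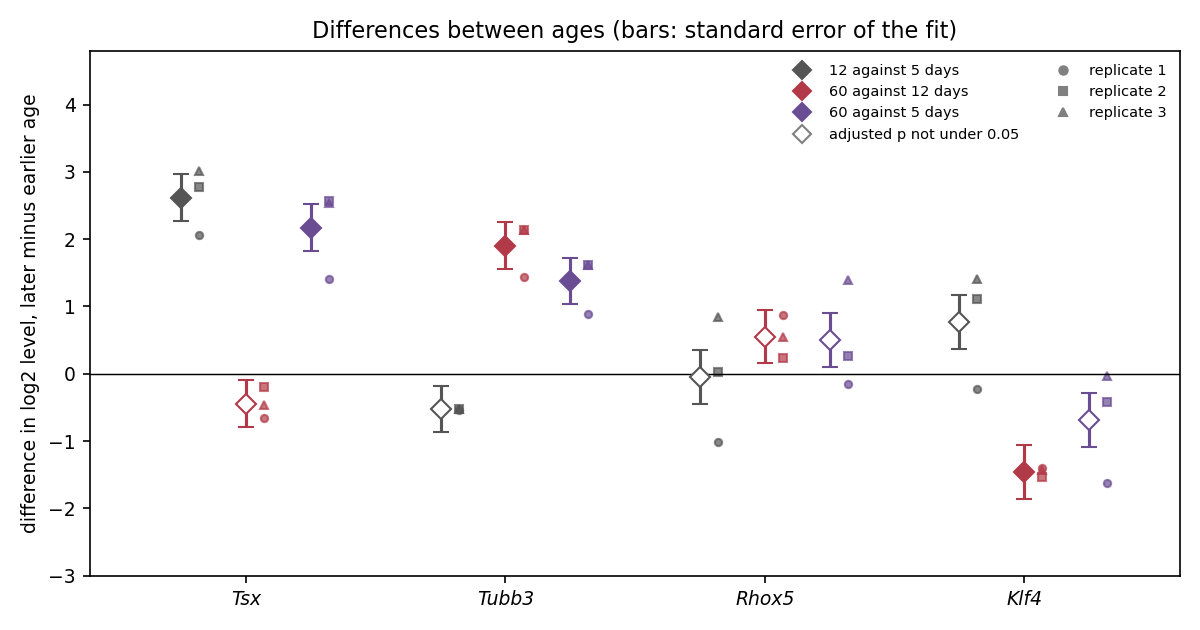
Difference in log2 level, later minus earlier age (vertical axis), for the 4 members tested in the 3 comparisons; diamonds are fitted values with their standard error, filled where the adjusted p was under 0.05, and small symbols are the differences within each slide. Tsx is filled for 12 and 60 against 5 days, Tubb3 for 60 days against both younger ages, Klf4 for 60 against 12 days, and Rhox5 for none.

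Klf4 is one of the Klf and Sp factors, zinc finger proteins that bind GC-rich DNA. Of 14 tested, none was called between 12 and 5 days, where 12.5% of all genes were. From 12 to 60 days none rose and 3 fell, where 12.3% and 13.1% of all genes did. Those that fell were Klf4 itself, Klf5 by 1.31 log2 units (SE 0.32, adjusted p = 0.0118) and Klf6 by 1.20 (SE 0.32, adjusted p = 0.0198). Klf6 was also lower at 60 than at 5 days (-1.15, adjusted p = 0.0176), a call lost without any of 3 single arrays and with quantile normalization. Klf15 (-1.40, adjusted p = 0.0102) and Klf1 were lower at 60 than at 5 days as well, where 18.1% of all genes were called lower. Klf1 exceeded background on just 1 of the 5-day arrays and none of the 60-day arrays, so no fold is given, and its call (adjusted p = 0.0191) was lost without either of 2 single arrays. The median difference of the 14 between 60 and 12 days was -0.71, or -0.47 with Klf1 at its bound, against a median of -0.16 over all genes. Klf9, a factor known to respond to hormones, had the highest value (1.00, adjusted p = 0.058), which was called with the slide as a block (adjusted p = 0.0436). Klf6 was not called between 60 and 12 days without any of 3 single arrays, while Klf5 was called without each of the 9 arrays and lost without 2 of the 3 replicate numbers.

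**Figure D4:**
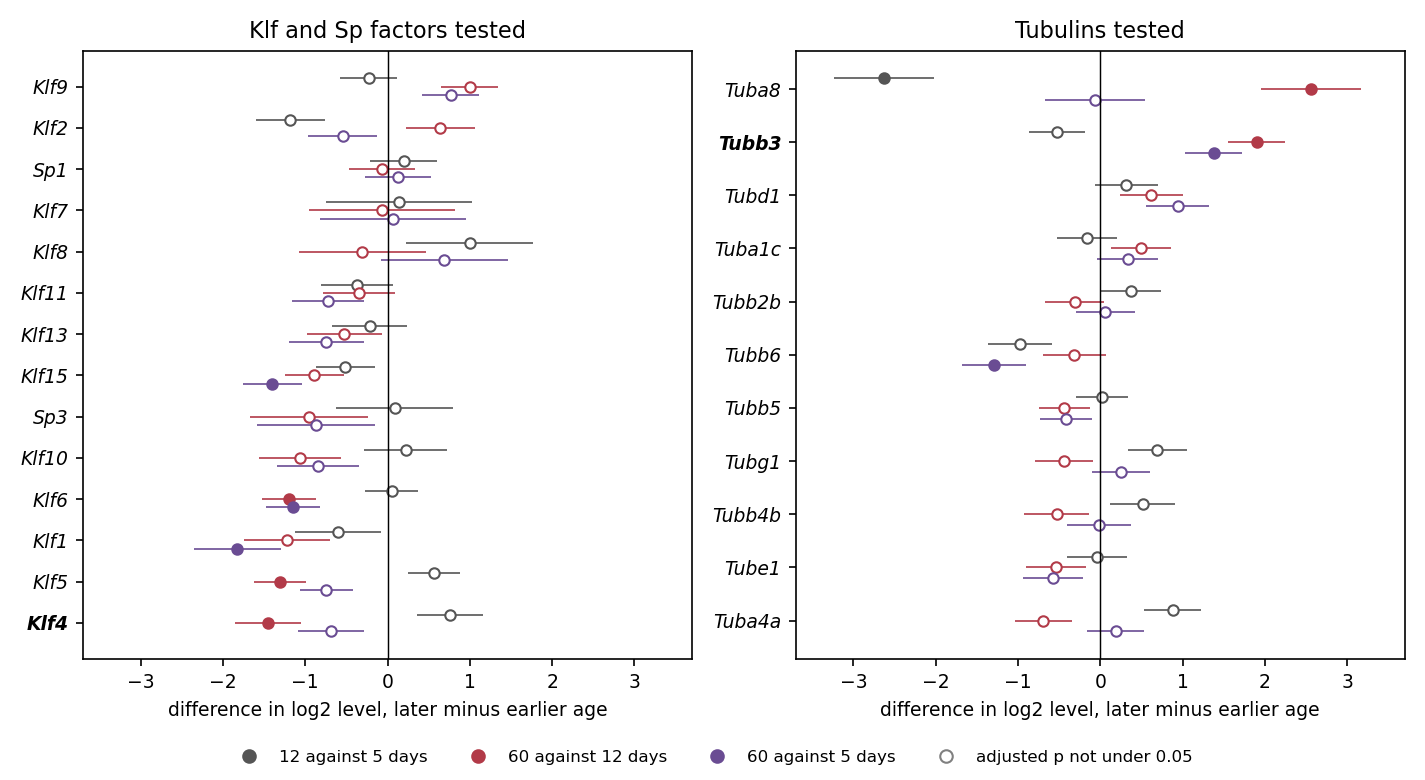
Difference in log2 level, later minus earlier age (horizontal axis, bars are standard errors), for the tested Klf and Sp factors (left) and tubulins (right) in the 3 comparisons; filled points have an adjusted p under 0.05. Klf4, Klf5 and Klf6 are the filled points between 60 and 12 days on the left, and Tuba8 and Tubb3 those on the right. Tubb4b and Tubb2b are plotted although their probes reached saturation.

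Klf4 belongs to the genes that FSH and cyclic AMP induce within hours, and 21 genes listed as such, Klf4 among them, were tested. From 5 to 12 days 5 rose and 5 fell, with a median difference of 0.61 log2 units, and from 12 to 60 days none rose and 9 fell, with a median of -1.09. Over all genes 6.13% rose and 6.32% fell in the first comparison and 12.3% and 13.1% in the second, with medians of 0.05 and -0.16. The 5 that fell from 5 to 12 days ranged from 0 to 5 when arrays or replicate numbers were left out. Nr4a3, an orphan nuclear receptor, was like Klf4 highest at 12 days: it rose by 4.53 from 5 to 12 days (SE 0.36, adjusted p = 4.49e-05) and fell by 3.42 from 12 to 60 days (SE 0.36, adjusted p = 6.74e-05). Between 60 and 5 days Nr4a3 was higher (1.11, adjusted p = 0.0335, a call lost without any of 5 single arrays), and Klf4 gave -0.69 and was not called. Dusp1, a phosphatase of MAP kinases, fell by 2.22 from 12 to 60 days (adjusted p = 0.0058) and Nr4a1, a relative of Nr4a3, by 2.16 (adjusted p = 0.00424). Fos, a subunit of AP-1, fell in both steps (-2.43 and -2.19, adjusted p = 0.0062 and 0.0057). Pde4d, a phosphodiesterase that breaks down cyclic AMP, followed Tsx more than Klf4, with a rise of 2.97 from 5 to 12 days (adjusted p = 0.000546) and -0.39 after it (adjusted p = 0.503). Between 60 and 12 days the count of 9 ranged from 3 to 11 when single arrays or replicate numbers were left out, and from 1 to 12 under other settings. In the same cultures the summed level of 13 peritubular myoid and fibroblast markers was 949 to 1791 at 5 days, 626 to 1036 at 12 days and 282 to 671 at 60 days. Its brightest probes were saturated on some arrays (Tpm2 on 7 of 9, Myl9 on 6 of 9 and Col3a1 on the 3 arrays of 5 days), so these sums are lower limits. The part of these cells in the falls was not tested.

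The nearest genes to Klf4 over the arrays were Rbbp5, a subunit of histone methyltransferase complexes (r = 0.992), Guca2a, the peptide guanylin (r = 0.979), and Cyp4f1, a fatty acid hydroxylase (r = 0.976). Guca2a fell by 2.32 log2 units from 12 to 60 days (SE 0.44, adjusted p = 0.00291, limma) and Cyp4f1 by 1.93 (SE 0.43, adjusted p = 0.00724), while Rbbp5 did not pass (-0.79, adjusted p = 0.09).

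Rhox5, the classical androgen target, had no difference that passed. Its log2 level was -0.47, -0.78 and -1.22 at 5 days, -1.49, -0.74 and -0.37 at 12 days and -0.62, -0.52 and 0.17 at 60 days on replicates 1, 2 and 3. The ages overlapped in all 3 comparisons, and all 9 spots were well above background, so the probe was measured throughout. The fitted differences were -0.05 between 12 and 5 days, 0.55 between 60 and 12 days and 0.50 between 60 and 5 days (SE 0.40 each, adjusted p = 0.97, 0.357 and 0.363, limma). From 5 to 12 days the slides ran in different directions, with -1.02 on replicate 1, 0.03 on replicate 2 and 0.84 on replicate 3, and from 5 to 60 days they gave -0.14, 0.26 and 1.39. From 12 to 60 days all 3 slides were higher (0.87, 0.23 and 0.55).

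The nearest genes to Rhox5 were Galnt1, which starts O-linked glycosylation (r = 0.940), Vcpip1, a deubiquitinase (r = 0.929), and B4galt6, a galactosyltransferase (r = 0.917), and none of the 3 was called in any comparison. Other Rhox genes, which lie in a cluster on the X chromosome, showed called differences, 3 of 4 tested between 12 and 5 days and between 60 and 5 days and none of 4 between 60 and 12 days (12.5%, 35.4% and 25.3% of all genes were called); whether these differ from Rhox5 was not tested. Of the 13 listed, 6 were named on the array and 4 tested. Rhoxl was not well above background on any 5-day array and was at least 22.2-fold higher at 12 days (adjusted p = 3.71e-06) and at least 25.1-fold higher at 60 days (adjusted p = 3.99e-07). Rhox4g was at least 1.38-fold higher at 12 days (adjusted p = 0.00161) and at least 1.84-fold higher at 60 days (adjusted p = 0.000136), and Rhox9 at least 1.83-fold higher at 60 days (adjusted p = 0.000135). At 12 days Rhox9 was well above background on 1 array, so its call there (adjusted p = 0.00151) is given with no fold. The calls of Rhox4g and Rhox9 at both ages were lost with another background correction, on replicates 1 and 3. Those at 12 days were also lost on the spike-in scale, and that of Rhox9 at 12 days without replicate 2. The calls of Rhoxl held in every setting. The array names similar members of this family, and signal could be shared between near-identical copies. With Rhoxl, Rhox4g and Rhox9 at their bounds, the median of the 4 was 0.88 between 60 and 5 days, against -0.09 for all genes.

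Drd4 was not well above background on any of the 9 arrays and was not tested. Its probe read -4.24, -4.23 and -4.15 at 5 days, -4.46, -4.41 and -3.74 at 12 days and -6.80, -5.45 and -4.68 at 60 days, and on 8 of 9 arrays these values lay below the lowest signal that counted as well above background on the same array (-3.32 to -4.76). Values at background have no order, so the lower readings at 60 days are not reported as a difference. Among the 5 dopamine receptors, Drd1 and Drd2 were likewise not well above background on any array, and Drd3 (6 of 9 arrays) and Drd5 (9 of 9) were tested and not called. Of 8 dopamine and catecholamine genes tested, none was called between 12 and 5 days, 1 rose and 1 fell from 12 to 60 days, and 1 was higher and 2 were lower at 60 than at 5 days (12.5%, 25.3% and 35.4% of all genes were called). With the slide as a block, Maob, an oxidase of amines, was called lower at 12 than at 5 days (adjusted p = 0.0283). In that fit Slc18a1, a vesicular amine transporter, was called higher at 12 days (0.0446), although it was not well above background at either age. Ddc, the decarboxylase that makes dopamine, fell by 2.28 log2 units from 12 to 60 days (SE 0.40, adjusted p = 0.00173). Maoa, which breaks down amines, rose by 1.27 over that interval (adjusted p = 0.0248) and was not called without any of 4 single arrays. Between 60 and 5 days Slc18a1 was higher (at least 1.57-fold, adjusted p = 0.00221), and Ddc and Maob were lower. Of the 60-day arrays just 1 read Maob above background, and its call (adjusted p = 0.0339) was lost without any of 4 single arrays.

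Of 26 tested genes listed for androgen action (the supply of the hormone and the cofactors of its signal), 1 rose and 1 fell from 5 to 12 days, 2 rose and 3 fell from 12 to 60 days, and 3 were higher and 3 lower at 60 than at 5 days (12.5%, 25.3% and 35.4% of all genes were called). The 2 that rose from 12 to 60 days became 0 in at least 1 of the 12 fits that left out an array or a replicate number. The median differences of 0.12, -0.28 and 0.19 stood against 0.05, -0.16 and -0.09 for all genes. Shbg, the androgen-binding protein secreted by Sertoli cells, rose in both steps (adjusted p = 0.000587 and 0.00434), by 1.57 log2 units in the second and by 4.07 from 5 to 60 days (SE 0.32). Ncoa4, a nuclear receptor coactivator that also handles ferritin, rose by 1.71 from 12 to 60 days (adjusted p = 0.00438). Hsd17b3, the enzyme that makes testosterone from androstenedione, was lower at 60 than at 12 days (adjusted p = 0.0044), but just 1 of the 3 60-day arrays read it above background, so the size of the fall is not given. Egfr, the receptor for epidermal growth factor, fell in both steps (-2.14 and -2.57, adjusted p = 0.0259 and 0.00539), and the first did not pass without any of 5 single arrays. Tgfb1i1, a coactivator at focal adhesions, was lower at 60 than at 5 days (-2.10, adjusted p = 0.00263). The germ cell and peritubular marker sums given above moved with age beside all of these, and their part was not tested.

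The wider group of androgen-responsive Sertoli genes held 23 names, of which 20 were on the array and 18 passed the filter, with Tsx, Tubb3 and Rhox5 among them. From 5 to 12 days 6 rose and none fell, from 12 to 60 days 7 rose and 1 fell, and 10 were higher and 2 lower at 60 than at 5 days (among all genes, 6.13% rose and 6.32% fell in the first comparison, 12.3% and 13.1% in the second, 17.3% and 18.1% in the third). Their median differences were 0.66, 0.50 and 1.16 log2 units, against 0.05, -0.16 and -0.09 for all genes, and the first became 0.50 with Gpd1 and Serpina5 at their bounds. The count of 6 became 2 without replicate 2 or without replicate 3, and 0 on the spike-in scale, and with the slide as a block it became 8, while 2 genes, Cldn3 and Wnt5a, were called lower. The count of 7 became 4 without replicate 2, and that of 10 became 6 on the spike-in scale. Clu, Cldn11 and Cst12 also stand in the list of Sertoli identity genes below. This list, like the others, was chosen with earlier results of these data known. Its counts and medians beside those of all genes are therefore a description and no test of the list.

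Among these genes Cst12, a cystatin of the testis, rose by 3.37 log2 units from 5 to 12 days and by 3.74 from 12 to 60 days (SE 0.40, adjusted p = 0.000399 and 7.85e-05). Cldn11, a claudin of the tight junctions between Sertoli cells, rose by 2.12 and 2.03 (SE 0.40, adjusted p = 0.00593 and 0.0038). Serpina5, a secreted inhibitor of serine proteases, was not well above background on any 5-day array and was at least 83.1-fold higher at 60 days (adjusted p = 1.94e-06). Clu, the secreted chaperone clusterin, rose by 2.87 from 12 to 60 days (SE 0.31, adjusted p = 7.68e-05), while its rise of 1.06 from 5 to 12 days (adjusted p = 0.047) was lost without any of 7 single arrays and stood at -0.24 on the spike-in scale. Ocln, which encodes occludin, rose by 1.66 from 5 to 12 days (adjusted p = 0.0158), a call lost without any of 3 single arrays, and gave 0.01 between 60 and 12 days (adjusted p = 0.984). Espn, an actin-bundling protein, rose by 1.94 from 12 to 60 days (adjusted p = 0.00461), and Gpd1, a glycerol phosphate dehydrogenase, was not well above background at 5 days and was at least 3.13-fold higher at 12 days (adjusted p = 0.0104). Wnt5a, a secreted signal, resembled Tubb3 in its signs, with -1.10 from 5 to 12 days (adjusted p = 0.0512, and 0.0289 with the slide as a block) and a rise of 2.06 from 12 to 60 days (adjusted p = 0.000924).

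In the other direction, Gja1, the gap junction protein connexin 43, fell by 1.19 from 12 to 60 days (adjusted p = 0.0374), which did not pass without any of 6 single arrays. Tsc22d3 and Fkbp5, which steroid receptors induce in many cells, had no called rise: Fkbp5 passed in no comparison (-0.79, 0.44 and -0.35), and Tsc22d3 was lower at 60 than at 5 days (-1.37, adjusted p = 0.0207), a call lost without any of 3 single arrays. Cst12, Cldn11 and Clu were called higher in both steps, though the first-step calls of Cldn11 and Clu were lost without replicate 2 and without replicate 3. The first-step calls of all 3 were lost on the spike-in scale. Neither Tsx nor Tubb3 was called higher in both steps, and whether these genes differ in this was not tested. The share of all genes called higher in both steps was not counted.

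**Figure D5:**
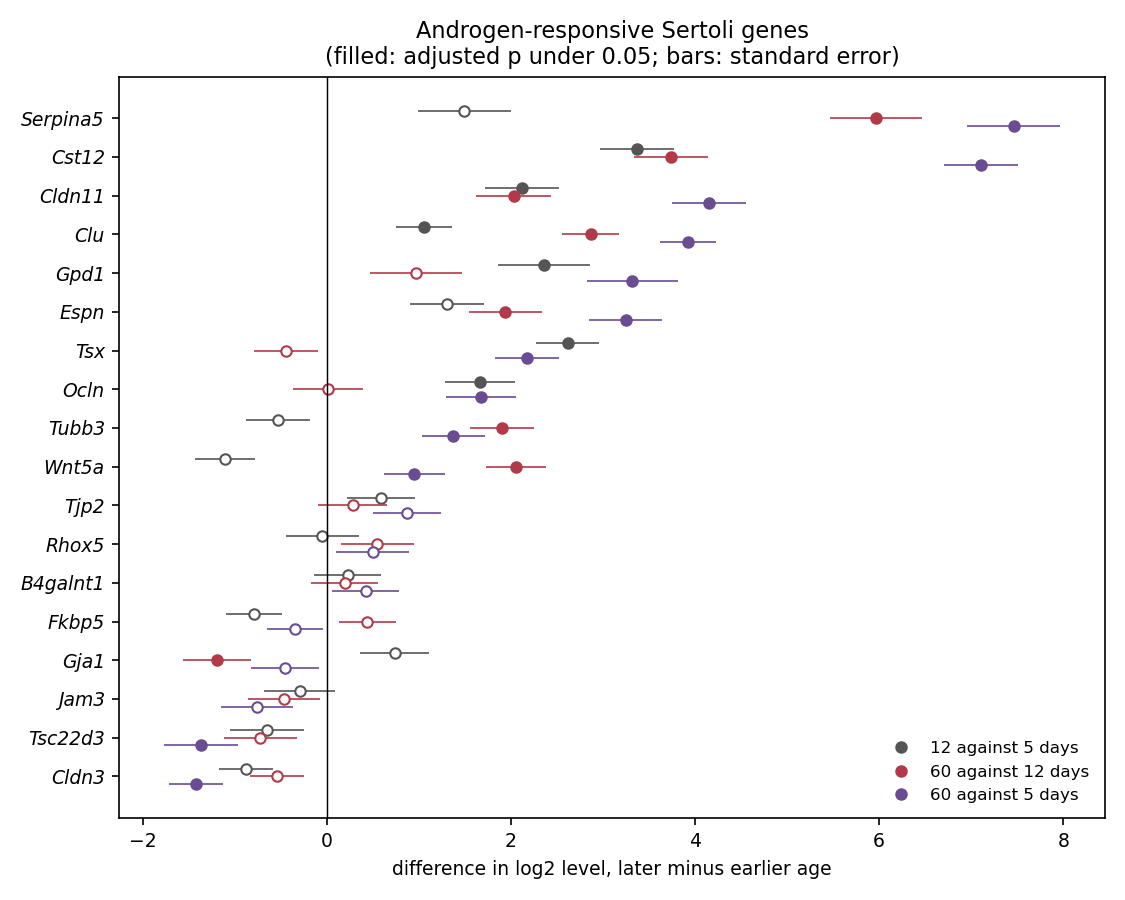
Difference in log2 level, later minus earlier age (horizontal axis, bars are standard errors), for the 18 tested androgen-responsive Sertoli genes in the 3 comparisons; filled points have an adjusted p under 0.05. Between 60 and 5 days Serpina5 and Cst12 lie farthest to the right and Cldn3 and Tsc22d3 farthest to the left, while Rhox5 has open points close to 0.

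The cultures also differed by age in markers of Sertoli cells themselves. Of 22 Sertoli identity genes on the array, 19 were well above background at 5 days, 21 at 12 days and 22 at 60 days, and their summed level was 143 to 302, 554 to 583 and 622 to 765 units. Ctsl alone made up 41.2% to 71.6% of the sum at 5 days, and its probe was saturated on 1 of the 60-day arrays. Without Ctsl the sums were 77.7 to 86.0, 395 to 427 and 506 to 584 units. Fabp9, a fatty acid binding protein, made up 16.0% to 25.5% of the sum at 60 days and rose by 7.98 log2 units from 12 to 60 days (adjusted p = 2.59e-06), a period over which the germ cell marker sums rose as well, and without it the sums were 554 to 583 at 12 days and 523 to 576 at 60 days. From 12 to 60 days 7 of the 22 rose and 3 fell, where 12.3% and 13.1% of all genes did. The same list rose in 15 and fell in none of its 22 members from 5 to 12 days, with a median of 2.13 log2 units, where 6.13% and 6.32% of all genes rose and fell. Set against the median of that list within each array, Tsx differed by 0.80 ± 0.87 between 12 and 5 days (-0.15, 1.55 and 1.01 on slides 1 to 3), by -1.35 ± 0.16 between 60 and 12 days and by -0.54 ± 0.80 between 60 and 5 days (mean ± SD, n = 3). Tubb3 differed by -2.34 ± 0.53, 1.00 ± 0.35 and -1.34 ± 0.56, Klf4 by -1.05 ± 1.23, -2.36 ± 0.43 and -3.41 ± 0.95, and Rhox5 by -1.86 ± 1.18, -0.36 ± 0.67 and -2.22 ± 0.83. Relative to that median, given as a description with no test, Tubb3, Klf4 and Rhox5 were thus lower at 60 than at 5 days on every slide, although the level of Tubb3 itself had risen. Tsx gave -1.46, 0.026 and -0.20 on slides 1 to 3 and so had no single direction. With the 17 Sertoli genes that were above background on all 9 arrays, the value of Tsx between 60 and 5 days was 0.33 and that of Rhox5 between 60 and 12 days 0.68, so that these directions depend on the genes taken as the yardstick. Sizes moved too: Tsx between 60 and 12 days gave -0.31, Tubb3 2.04 between 60 and 12 days and -0.46 between 60 and 5 days, Klf4 -1.32 between 60 and 12 days and Rhox5 -1.34 between 60 and 5 days.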

How the data were processed

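Cy3-labelled RNA of 9 Sertoli cell samples, primed with oligo-dT per the labels, was hybridised to one-colour Agilent arrays of 41012 probes. Per the file headers, Feature Extraction 9.5.3.1 (scanner G2505B) quantified replicate 1, and 10.5.1.1 (G2505C) the others. The processed intensity is background-subtracted within the array, per the file headers. The authors' deposited log2 table equals the log2 intensity minus the array's 75th percentile, up to a constant for each column, within 0.01 for at least 99.6% of probes.

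Control spots and 254 probes failing quality flags were left out. The 75th percentile lay between 149 and 435 units of intensity. Probes were named by RefSeq accession (11024), by a current symbol (5574), by an older one (3714) or as in the file (20446), and the brightest probe stood for a gene. A mean per age was fitted with limma 3.58.1 (R 4.3.3; residual degrees of freedom 6, prior 4.64). A fold of at least N sets signals of an age never well above background to each array's lowest value that was. The number of arrays limits the precision.

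The labels do not name separate animals for the replicates, so the spread behind each p-value may be technical. The replicate number is the slide, and deviations from the age means had r of 0.18 to 0.60 for a shared number (9 pairs) and -0.51 to 0.09 otherwise (18 pairs), so the numbers pair the arrays. Each age had a fixed place on the slide, and place and age cannot be told apart. Alternatives were other scalings, background correction, filters, probes and subsets of arrays. Members and lists were chosen with earlier results of these data known. Named genes were the members, the 3 nearest of each by r, any member of the androgen-responsive, tubulin, Klf, Rhox and dopamine lists, and up to 4 called members per comparison of the others. Some genes of these lists are not reported here and were left out of their counts. The fits were tested on simulated data.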

Additional observations from a re-analysis of the deposited data

How the results depend on the processing

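On the spike-in scale Tsx turned to 0.51 between 60 and 12 days, its difference of steps was -0.80, its F-test adjusted p 0.220, and its rises 1.32 and 1.83. There Tubb3 gave 1.03 between 60 and 5 days and was no longer called (adjusted p = 0.502, limma). On the same scale Klf4 gave -0.53 between 12 and 5 days, -0.50 between 60 and 12 days, 0.035 for the difference of steps and 0.576 for the F-test. With normexp background correction, which covers the 6 arrays of replicates 1 and 3 and leaves out spots whose local background was an outlier, Tubb3 gave 2.32 for the difference of steps, Rhox5 0.012 between 12 and 5 days, and Klf4 -1.10 between 60 and 12 days and 0.213 for the F-test. The F-test of Klf4 was also lost without a filter (0.0671) and with quantile normalization (0.0692). With the replicate block, Klf4's difference of steps was called (-2.22, adjusted p = 0.0430), and no other member's call changed. Clu turned to -0.24 between 12 and 5 days on the spike-in scale. The causes were not tested.

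Leaving out single arrays or replicate numbers gave, for Tsx, rises of 2.42 to 2.94 (12 days) and 1.98 to 2.56 (60 days), -0.56 to -0.34 between these ages, and -3.39 to -2.84 for the steps. Tubb3 ranged over 1.72 to 2.22 in the second step, 1.19 to 1.69 from 5 to 60 days, 2.25 to 2.75 for the steps and 0.00115 to 0.0785 for the F-test, and Klf4 over -1.74 to -1.20 between 60 and 12 days and 0.0288 to 0.260 for the F-test. Rhox5 ranged over -0.49 to 0.44 between 12 and 5 days and -0.051 to 1.09 for the steps, turning sign without replicate 1 (0.44 and -0.051), without its 12-day array (0.26 and -0.025) or its 5-day array (0.13).

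Genes called numbered 715, 2002 and 3378 with normexp in the 3 comparisons, 1528, 3246 and 4475 among genes above background on all 9 arrays, where fewer genes were tested, and 3015 and 4108 on the spike-in scale between 60 and 12 and 60 and 5 days, against 2796, 5683 and 7943. Without single arrays or numbers they ranged over 850 to 3078, 2768 to 5699 and 4911 to 7996. Against the 17 Sertoli genes, the values between 60 and 12 days were -0.31 (Tsx), 2.04 (Tubb3), 0.68 (Rhox5) and -1.32 (Klf4), and between 60 and 5 days 0.33, -0.46, -1.34 and -2.53; with normexp they were -0.64 (Tsx), 1.497 (Tubb3), 0.035 (Rhox5) and -1.41 (Klf4), and then -0.10, -0.88, -1.81 and -2.86. Under the deposited table, median scaling, every probe, the 6 arrays of both ages and the filter on all 9 arrays, no member's call or direction changed.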
